A study of Mus musculus with 2 samples.

Results

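The MHC class I presentation genes followed here are 10 gene symbols of the count tables, chosen by name and not by a cut on any measured value. Earlier results of these data were known when the choice was made. They are the heavy chain genes *H2-K1*, *H2-D1* and *H2-T23*, the light chain gene *B2m*, the peptide loading genes *Tap1*, *Tap2*, *Tapbp*, *Tapbpl* and *Erap1*, and the regulator *Nlrc5*. All 10 have a row of their own among the 23282 gene rows. Naïve CD4 T cells of *Fak* fl/fl mice (spleen, young adult females) were transduced with a control retrovirus, the empty vector MIEG3, or with RV-Cre, a retrovirus that carries Cre recombinase and deletes the floxed *Fak* gene. Both cultures were activated with antibodies against CD3ε on the plate (10 μg/ml) and against CD28 in solution (5 μg/ml). Both were kept for 3 days under Th17-polarizing conditions, with IL-6 (50 ng/ml), TGFβ1 (1 ng/ml), TNFα (1 ng/ml), IL-1β (2 ng/ml) and antibodies against IFNγ and IL-4 (5 μg/ml each), and transduced cells were sorted by GFP. The antibody against IFNγ was thus present in both cultures. The control sample is labelled WT by genotype but *Fak* fl/fl by title, and the title was followed. RNA-seq was performed on 1 library per condition. Effects of Cre itself and of *Fak* deletion cannot be told apart, since both are present in the same library.

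MHC class I molecules present peptides from the cytosol on the surface of almost every nucleated cell. Proteasomes cut proteins into peptides, the TAP1–TAP2 pump carries them into the endoplasmic reticulum, the peptidase ERAP1 trims them, and tapasin holds an empty heavy chain with β2-microglobulin until a peptide has bound. In lymphocytes, NLRC5 drives transcription of the heavy chain, *B2m* and *Tap1* genes through a conserved promoter module, and interferons raise the pathway further.

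Counted reads summed to 13799264 for control and 12305010 for RV-Cre cells, and each count was scaled by TMM and compared as log2(normalized count + 1). Libraries were made with a QuantSeq kit, which reads each transcript near its 3′ end, so counts do not grow with transcript length and were not divided by it. *Ptk2*, the symbol of *Fak*, had 110 control and 31 RV-Cre reads, a normalized ratio of 0.318. Each ratio is followed by its exact Clopper-Pearson 95% interval, which reflects counting error alone, so that the comparison is of 2 libraries and not of conditions. A gene counts as higher or lower here when it differed by at least 2-fold and had at least 15 normalized reads (a log2 value of 4) in at least 1 library. *Rn45s*, a ribosomal RNA gene, took up 8.50% of the control reads (Wilson 95% interval 8.49 to 8.51) and 14.6% of the RV-Cre reads (14.6 to 14.6).

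The promoters of class I genes are shown first, with matches to short words for NF-κB, interferon regulatory factors, CREB/ATF and NF-Y. The conserved module through which NLRC5 acts was not searched as a whole, so the marked letters do not show it. Each run holds 250 bases before and 50 after an annotated start, 5′ to 3′ on the gene's strand, from RefSeq (GRCm38.p6, the assembly also named mm10). Capitals mark matches on either strand to GGGGATTCC (part of the κB site of the class I enhancer), GAANNGAAA or GAAANNGAA (spellings of the core of the interferon-stimulated response element, which may overlap), TGACG (a CREB/ATF core site) and CCAAT (the NF-Y box).
*H2-K1* (chr17:34000284-34000583, minus strand): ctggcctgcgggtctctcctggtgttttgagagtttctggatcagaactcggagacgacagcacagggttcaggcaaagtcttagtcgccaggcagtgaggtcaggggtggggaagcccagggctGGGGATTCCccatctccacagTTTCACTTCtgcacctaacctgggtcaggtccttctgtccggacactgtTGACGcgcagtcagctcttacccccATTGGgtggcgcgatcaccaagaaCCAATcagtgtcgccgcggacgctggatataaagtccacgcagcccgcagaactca
*H2-D1* (chr17:35262844-35263143, plus strand): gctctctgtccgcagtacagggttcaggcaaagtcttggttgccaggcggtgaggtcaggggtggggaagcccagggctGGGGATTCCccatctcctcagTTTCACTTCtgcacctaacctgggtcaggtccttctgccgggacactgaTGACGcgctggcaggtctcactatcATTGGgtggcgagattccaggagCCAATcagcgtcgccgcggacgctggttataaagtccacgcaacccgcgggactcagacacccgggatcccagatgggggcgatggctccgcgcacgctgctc
*B2m* (chr2:122147437-122147736, plus strand): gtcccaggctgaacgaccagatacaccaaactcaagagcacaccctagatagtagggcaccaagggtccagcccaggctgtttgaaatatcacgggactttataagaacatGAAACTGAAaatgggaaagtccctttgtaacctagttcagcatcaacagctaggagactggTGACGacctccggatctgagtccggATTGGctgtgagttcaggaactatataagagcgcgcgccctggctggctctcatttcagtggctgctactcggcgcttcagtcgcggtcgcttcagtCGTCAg
*Tap1* (chr17:34187306-34187605, plus strand): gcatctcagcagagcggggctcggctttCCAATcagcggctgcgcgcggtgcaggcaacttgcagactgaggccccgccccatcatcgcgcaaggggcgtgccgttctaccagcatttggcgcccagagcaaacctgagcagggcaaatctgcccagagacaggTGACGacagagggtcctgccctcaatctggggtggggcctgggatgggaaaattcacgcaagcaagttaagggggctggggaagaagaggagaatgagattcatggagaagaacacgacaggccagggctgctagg
*H2-T23* (chr17:36032652-36032951, minus strand): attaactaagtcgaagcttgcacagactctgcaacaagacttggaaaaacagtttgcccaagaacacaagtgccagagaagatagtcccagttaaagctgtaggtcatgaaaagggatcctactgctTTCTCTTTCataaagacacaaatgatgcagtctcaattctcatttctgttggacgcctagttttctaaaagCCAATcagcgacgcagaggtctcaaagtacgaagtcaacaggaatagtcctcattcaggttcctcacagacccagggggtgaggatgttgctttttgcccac

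The *H2-K1* and *H2-D1* promoters were the most alike, with 225 of 300 bases identical in a global alignment. Both hold the same 5 matches in the same order, the κB site, the interferon element, the CREB/ATF core site and a pair of NF-Y boxes. The letters GGGGATTCC were found in 82 of the 32851 promoters of the table (0.25%), and among the class I presentation genes in *H2-K1* and *H2-D1*. No other κB spelling was searched, so κB sites spelled otherwise, in *B2m* or elsewhere, are not marked. The interferon element spelled GAANNGAAA was found in 7.52% of all promoters, and the other spelling GAAANNGAA, which *B2m*, *H2-T23* and *Erap1* hold, in 8.56%. The CREB/ATF core site was found in 20.8% and the NF-Y box in 37.4% of all promoters, so that these short words alone are common. The table held a promoter for 7 of the 10 genes, and *Tap2*, *Tapbpl* and *Nlrc5* were not among them. A match describes the letters only, and binding was not measured in these libraries.

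**Figure D1:**
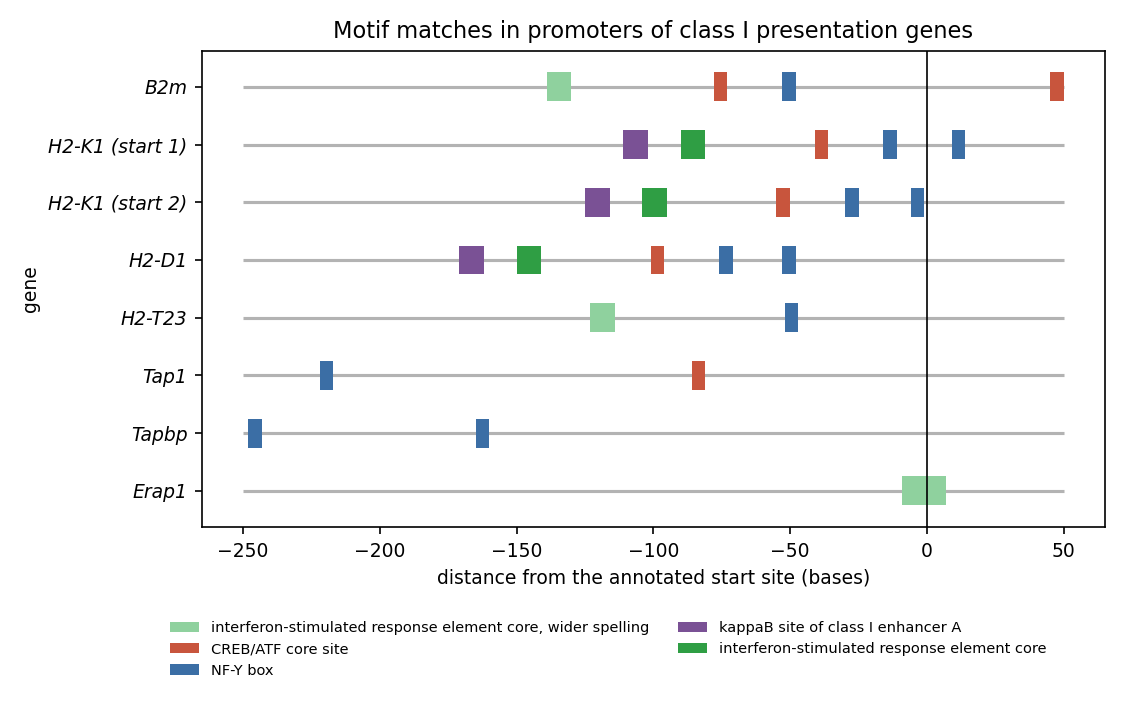
Motif matches (coloured blocks) in the 7 class I presentation genes with a promoter sequence, by distance in bases from the annotated start site, which is position 0. *H2-K1* is drawn for both of its annotated starts. The spelling called wider in the legend is GAAANNGAA. The κB site of the class I enhancer, searched in the spelling GGGGATTCC alone, is seen in *H2-K1* and *H2-D1*. Of the motifs searched, *Tapbp* has NF-Y boxes only.

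Light chain and classical heavy chains were abundant in both libraries and differed little between them. *B2m* (chr2:122147686-122153083, plus strand), which encodes the light chain shared by all class I molecules, had 37157 control and 38041 RV-Cre reads. Its normalized counts were 34978 and 40411, a ratio of 1.16 (95% interval 1.14 to 1.17). By read count *B2m* ranked 21 of all rows for control and 10 for RV-Cre cells. *H2-K1* (chr17:33996017-34000347, minus strand), which encodes the classical heavy chain K, had 17375 and 18939 reads, or 16356 and 20119 normalized counts, a ratio of 1.23 (1.20 to 1.26). *H2-D1* (chr17:35262730-35267499, plus strand), which encodes the classical heavy chain D, had 10018 and 8848 reads, or 9431 and 9399 normalized counts. Its ratio of 0.997 (0.968 to 1.03) did not differ from 1 beyond counting error. *B2m* and *H2-K1* were thus slightly higher in the RV-Cre library, and *H2-D1* lay level.

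The non-classical heavy chain gene *H2-T23* (chr17:36029773-36032855, minus strand), which encodes Qa-1, the ligand of CD94/NKG2 receptors, was near the limit of the data. It had 28 control and 10 RV-Cre reads, or 26.4 and 10.62 normalized counts. The ratio was 0.403 with a wide interval of 0.175 to 0.855, and the log2 ratio was -1.23. This count of reads meets the 2-fold rule, but with a pseudocount of 10, a minimum of 6 or scaling to *Gapdh* it no longer does. In the last 300 bases of its longest protein-coding transcript (GENCODE M21), 127 of 251 windows of 50 bases also occur in transcripts of other genes. The same count was 2 of 251 for *H2-K1*, 43 of 251 for *H2-D1*, and 0 for *B2m*, *Tap1*, *Tap2*, *Tapbp*, *Tapbpl*, *Erap1* and *Nlrc5*. How reads that map to several places were counted is not given in the sources used here, and the part this has in the counts of *H2-T23* and *H2-D1* was not tested. Summed over the 3 heavy chain genes, reads numbered 27421 and 27797, a ratio of 1.14 (1.12 to 1.16).

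A ratio of reads of 1 gene to those of another within a library does not depend on the scaling between libraries. Intervals for the change in such a ratio come from a normal approximation on the log scale and again cover counting error only. The summed heavy chains made 0.738 reads per *B2m* read (control) and 0.731 (RV-Cre), a change of 0.990-fold (0.969 to 1.01). The proportion of *H2-K1*, *H2-D1* and *H2-T23* reads together to *B2m* reads thus did not differ beyond counting error. This need not hold for a wider sum. All H2 class I rows together, a sum chosen after seeing the data, had a normalized ratio of 1.11 (1.09 to 1.12). That was below the ratio of *B2m*, 1.16 (1.14 to 1.17), and the intervals did not overlap. Between the heavy chains the balance differed, with 0.577 *H2-D1* reads per *H2-K1* read (control) and 0.467 (RV-Cre), 0.810-fold (0.782 to 0.839).

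**Figure D2:**
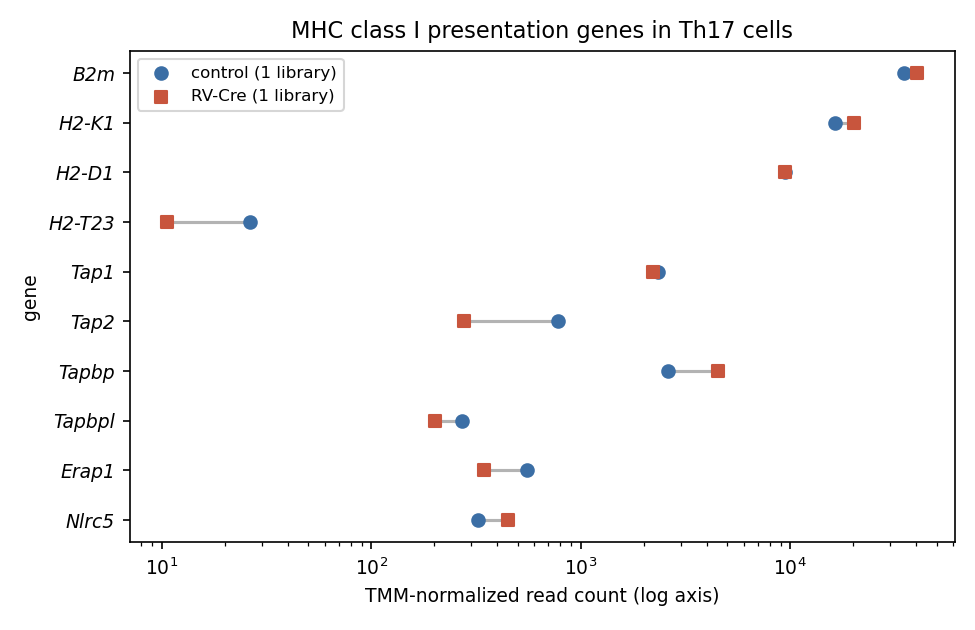
TMM-normalized read count (log axis) of each class I presentation gene in the control library (circles) and the RV-Cre library (squares), 1 library each. *B2m*, *H2-K1* and *H2-D1* lie between 9399 and 40411 in both libraries, while *Tap2* and *H2-T23* show the widest gaps.

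The subunits of the peptide pump differed from each other. *Tap1* (chr17:34187553-34197225, plus strand) had 2482 control and 2075 RV-Cre reads, or 2336 and 2204 normalized counts, a ratio of 0.943 whose interval (0.890 to 1.00) reaches 1. *Tap2* (chr17:34203527-34216321, plus strand), its partner in the heterodimer, had 828 and 262 reads, or 779 and 278 normalized counts. The *Tap2* ratio was 0.357 (0.310 to 0.411), a log2 ratio of -1.48, and 6.28% of all genes past the minimum had a lower one. *Tap2* reads per *Tap1* read were 0.334 (control) and 0.126 (RV-Cre), 0.378-fold (0.326 to 0.440). Of the class I presentation genes, *Tap2* was the one called lower under all 6 alternatives of scaling and pseudocount, with log2 ratios from -1.50 to -1.07.

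Both pump genes overlap others on the opposite strand, and no source states that reads were counted by strand. *Tap1* shares 212 exon bases with *Psmb9*, which encodes the immunoproteasome subunit β1i and is transcribed in the opposite direction from a start next to that of *Tap1*. *Psmb9* had 1231 control and 436 RV-Cre reads, a ratio of 0.400 (0.358 to 0.446). *Psmb9* reads per *Tap1* read were 0.496 and 0.210, so that these adjoining genes differed in their balance, 0.424-fold (0.374 to 0.479). *Tap2* shares 165 exon bases with the antisense gene *Gm20496* and 533 with the non-coding gene *Gm15821*, neither of which has a row of its own. As *Tap1* and *Psmb9* run apart from adjoining starts, their shared bases lie on the 5′ side of both. For the *Tap2* overlaps and those given below, it was not examined whether the shared bases lie near the 3′ end, where reads fall. How large a part of the *Tap2* reads is uncertain is thus not known.

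The tapasin gene and its relative lay on opposite sides of a ratio of 1. *Tapbp* (chr17:33915899-33929292, plus strand), which encodes tapasin, had 2762 control and 4257 RV-Cre reads, or 2600 and 4522 normalized counts. This ratio of 1.74 (1.66 to 1.83) was the highest of the 10, beyond counting error but below 2-fold. *Tapbpl* (chr6:125223933-125231860, minus strand), which encodes TAPBPR, a second peptide editor that works outside the loading complex, had 289 and 189 reads, or 272 and 201 normalized counts, a ratio of 0.738 (0.611 to 0.890). There were 0.105 *Tapbpl* reads per *Tapbp* read (control) and 0.0444 (RV-Cre), 0.424-fold (0.351 to 0.513). *Tapbp* shares 149 exon bases with *Zbtb22* on its own strand and 904 with an antisense gene. *Zbtb22* had 318 and 290 reads, far fewer than *Tapbp*.

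*Erap1* (chr13:74639568-74693201, plus strand), which encodes the trimming peptidase ERAAP of the mouse, was lower in the RV-Cre library. It had 591 control and 324 RV-Cre reads, or 556 and 344 normalized counts, a ratio of 0.619 (0.539 to 0.710). *Erap1* reads per *Tap1* read were 0.238 and 0.156. It shares 834 exon bases with *Cast*, the calpastatin gene on the opposite strand, which had 630 and 910 reads, a log2 ratio of 0.70.

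The regulator was not lower. *Nlrc5* (chr8:94434356-94527272, plus strand) had 343 control and 422 RV-Cre reads, or 323 and 448 normalized counts, a ratio of 1.39 (1.20 to 1.61). It shares 78 exon bases with the opposite-strand gene *9330175E14Rik*, which had 4 and 14 reads. Of the 10 genes, those that NLRC5 is known to drive did not move together. *B2m* and *H2-K1* were above 1 as well, *H2-D1* and *Tap1* had intervals that reached 1, and *H2-T23*, with few reads, was below 1. Outside the 10, *Psmb9*, next to *Tap1*, was at 0.400 and the summed T region genes *H2-T9*, *H2-T10* and *H2-T22* at 0.635. The link of these values to *Nlrc5* was not tested.

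**Figure D3:**
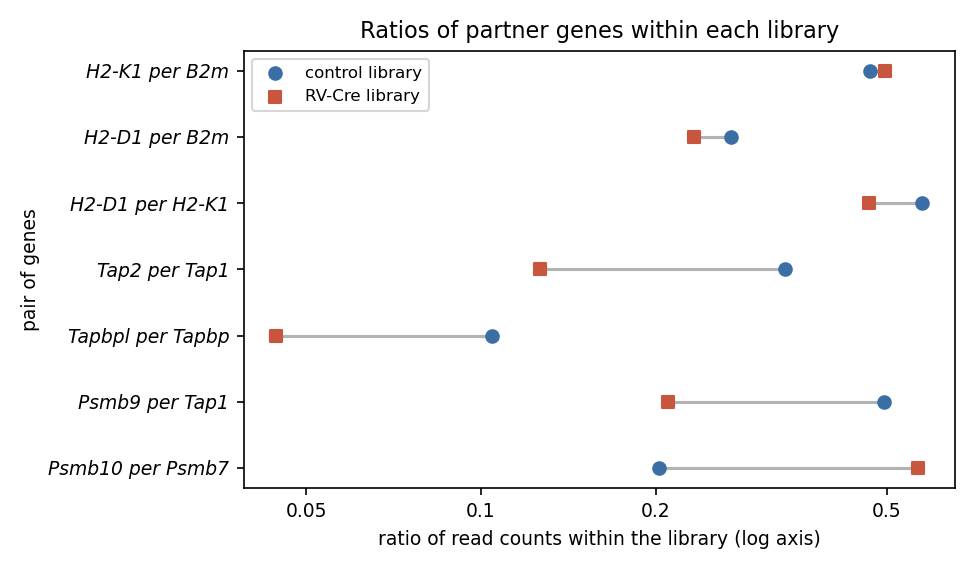
Reads of one gene per read of another within the control library (circles) and within the RV-Cre library (squares), on a log axis. *Tap2* per *Tap1*, *Tapbpl* per *Tapbp* and *Psmb9* per *Tap1* are lower in the RV-Cre library, *Psmb10* per *Psmb7* is higher, and *H2-K1* per *B2m* nearly coincides. *H2-D1* per *B2m* and *H2-D1* per *H2-K1* are lower to a lesser degree.

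Taken as a list, all 10 genes reached the minimum level, *H2-T23* and *Tap2* (2 genes) were at least 2-fold lower, and 0 were 2-fold higher. Over all 12112 genes past the minimum, 12.3% met the rule for lower and 14.2% that for higher. The share depends on abundance, and among 2473 abundant genes, whose log2 values averaged at least 10, 6.07% were lower and 3.28% higher. Of the class I presentation genes, 5 are this abundant (*B2m*, *H2-K1*, *H2-D1*, *Tap1* and *Tapbp*), and 0 of them met either rule. With 10 genes, 2 lower is a share of 20%, and 1 of the 2 rests on the few reads of *H2-T23*. Counting intervals lay above 1 for 4 genes (*B2m*, *H2-K1*, *Tapbp* and *Nlrc5*), below 1 for 4 (*H2-T23*, *Tap2*, *Tapbpl* and *Erap1*) and held 1 for 2. An interval that leaves out 1 is common at this depth, as 74.7% of the genes past the minimum had one. The median log2 ratio of the list was -0.04 (0.37 with scaling to *Gapdh*), beside -0.01 over all genes past the minimum. The 10 genes held 0.521% of the control reads (Wilson 95% interval 0.517 to 0.525) and 0.596% of the RV-Cre reads (0.592 to 0.601).

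**Figure D4:**
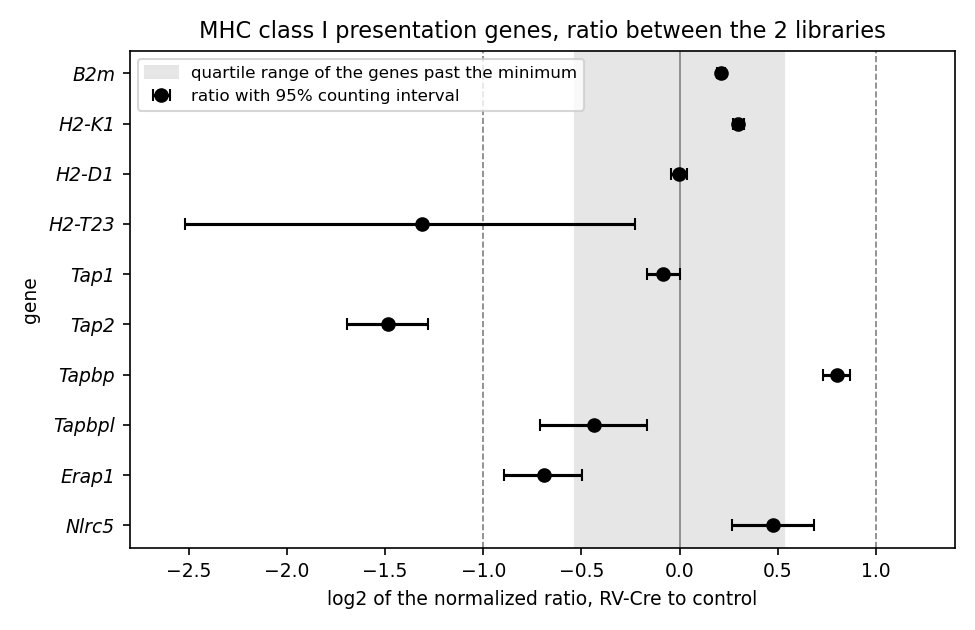
Log2 of the normalized ratio of RV-Cre to control for each class I presentation gene, without a pseudocount, with exact 95% counting intervals (bars). The grey band spans the lower to the upper quartile of the 12112 genes past the minimum and dashed lines mark 2-fold. *Tap2* lies wholly beyond the lower line, the interval of *H2-T23* crosses it, and *Tapbp* lies between the band and the upper line.

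The other class I heavy chain genes, 33 on a list of Q, T and M region genes and class I-like genes, were mostly near 0 reads. Of these, 10 passed the minimum, with a median log2 ratio of -0.28 (0.14 with scaling to *Gapdh*), and 14 had 0 reads in both libraries. *H2-Q9*, a Qa-2 gene, had 1874 control and 1698 RV-Cre reads, a ratio of 1.02 (0.957 to 1.09). *Cd1d1*, which presents lipids to NKT cells, had 29 and 75 reads, a ratio of 2.92 (1.88 to 4.65). *Mr1*, which presents vitamin B metabolites to MAIT cells, had 11 and 21 reads, with a ratio of 2.15 and an interval (0.993 to 4.95) that holds 1. They were the 2 genes of the list at least 2-fold higher, and 0 were lower, beside 14.2% and 12.3% of all genes past the minimum. *H2-Q4* (20 and 9 reads) and *H2-Q5* (23 and 11 reads) had the lowest log2 ratios, -0.91 and -0.84, with intervals that hold 1. *H2-T9*, *H2-T10* and *H2-T22*, T region genes of which *H2-T10* shares 125 of 251 windows at its 3′ end with *H2-T22*, summed to 1831 and 1030 reads, a ratio of 0.635 (0.588 to 0.686). The H2 rows on this list together with the 3 heavy chain genes above summed to 31477 and 30880 reads, a ratio of 1.11 (1.09 to 1.12).

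Chaperones and other factors of the endoplasmic reticulum that receive and load class I molecules lay slightly lower with the main scaling. Of 11 genes, 10 had a log2 ratio below 0, with a median of -0.21, and 0 passed 2-fold in either direction. Over all genes past the minimum 14.2% met the rule for higher and 12.3% that for lower, and among abundant genes 3.28% and 6.07%. The median over all abundant genes was -0.098, and 49.6% of all genes past the minimum had a log2 ratio above 0. With scaling to *Gapdh* the median of these 11 genes was 0.21, beside 0.43 over all genes past the minimum. *Hspa5*, which encodes BiP and had most reads, had 19304 and 15037 reads, a ratio of 0.879 (0.860 to 0.898). *Calr*, which encodes calreticulin of the loading complex, had 9932 and 6649 reads, a ratio of 0.755 (0.732 to 0.779). *Sec61b*, a translocon subunit, was lowest at 0.649 (0.607 to 0.694), and *Prkcsh*, the β subunit of glucosidase II, was the one above 1 at 1.22 (1.14 to 1.30).

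The proteasome subunits that cut class I peptides were uneven. Of 6 immunoproteasome genes *Psmb9* was at least 2-fold lower and 0 were higher, beside 12.3% and 14.2% of all genes past the minimum. Their median log2 ratio was -0.17 (0.25 with scaling to *Gapdh*). *Psmb10*, which encodes the subunit β2i, had 694 and 807 reads, a ratio of 1.31 (1.18 to 1.45). Its constitutive counterpart *Psmb7* had 3428 and 1425 reads, a ratio of 0.469 (0.441 to 0.499), and *Psmb5*, the constitutive β5 subunit, had 3636 and 3066 reads, a ratio of 0.952 (0.907 to 0.999). *Psmb10* reads per *Psmb7* read were therefore 0.202 (control) and 0.566 (RV-Cre), 2.80-fold (2.48 to 3.15). For β1i the balance went the other way, with 0.375 *Psmb9* reads per *Psmb6* read (control) and 0.140 (RV-Cre). *Psmb8* reads per *Psmb5* read were also lower, 0.759 (control) and 0.671 (RV-Cre), 0.884-fold (0.821 to 0.953). *Pomp*, the assembly factor with most reads of the list, had a ratio of 0.728 (0.710 to 0.746) and *Psme1*, the PA28α activator, one of 1.20 (1.15 to 1.25). Among 8 cytosolic and other peptidases 0 passed 2-fold in either direction, beside the same 12.3% and 14.2%. *Lap3* was lowest at 0.514 (0.461 to 0.572) and *Lnpep*, which encodes IRAP, highest at 1.67 (1.25 to 2.22). *Tpp2*, a cytosolic peptidase, had 1589 and 983 reads, a ratio of 0.698 (0.644 to 0.756), and *Nrd1*, with most reads of these, 2220 and 2785, a ratio of 1.42 (1.34 to 1.498).

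Regulators of class I promoters and the interferon pathway held genes on both sides. Of 16 promoter regulators 1 was at least 2-fold higher and 0 were lower, beside 14.2% and 12.3% of all genes past the minimum. The 1 higher was *Irf2*, which binds interferon elements, with 873 and 1718 reads and a ratio of 2.22 (2.05 to 2.41). *Stat2* followed at 1.57 (1.32 to 1.87). *Nfkb1*, which encodes an NF-κB subunit, had a ratio of 0.548 (0.509 to 0.589) and *Nfya*, a subunit of NF-Y, one of 0.577 (0.480 to 0.691). *Irf8*, with 13182 and 10015 reads, held most reads of the list. The median log2 ratio was 0.16.

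Among 9 genes of interferon signalling 7 had a log2 ratio above 0, beside 49.6% of all genes past the minimum, while the ligand *Ifng* was lower. *Ifngr1*, which encodes the ligand-binding chain of the IFNγ receptor, had 552 control and 1277 RV-Cre reads, a ratio of 2.61 (2.36 to 2.89). *Jak1*, its kinase, had 5144 and 11239 reads, a ratio of 2.47 (2.39 to 2.55). *Ifng* itself had 126 and 41 reads, a ratio of 0.367 (0.252 to 0.526). *Socs1*, a feedback inhibitor, was at 0.664 (0.611 to 0.722). The median log2 ratio of the list was 0.41. In it 2 genes met the rule for higher and 1 that for lower, beside 14.2% and 12.3% of all genes past the minimum.

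Class II presentation genes, which mark professional antigen-presenting cells, differed from the class I genes in level. Their 11 rows summed to 2291 control and 3511 RV-Cre reads, against 71873 and 73367 for the 10 class I presentation genes. Of the 9 past the minimum 3 were at least 2-fold higher, *Cd74* (244 and 583 reads), *H2-Eb1* (223 and 489 reads) and *Ctss* (684 and 1392 reads). Over all genes past the minimum this share was 14.2%, and that of genes at least 2-fold lower was 12.3%. *H2-Oa*, with 51 and 13 reads, was at least 2-fold lower, and *H2-DMa*, with 481 and 222 reads, had a ratio of 0.521 (0.442 to 0.612). The median log2 ratio was 0.83, the value of *H2-Ob*, which had 16 and 26 reads and an interval (0.947 to 3.66) that holds 1. This median was 0.59 with a pseudocount of 10, 0.61 without a minimum and 1.05 with a minimum of 6.

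**Figure D5:**
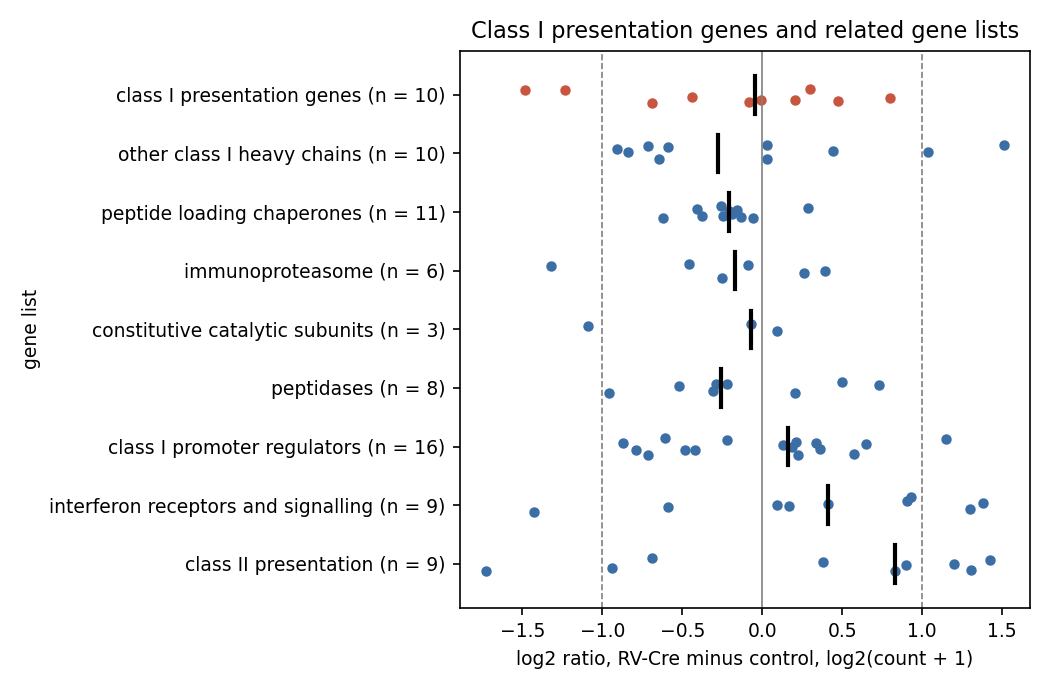
Log2 ratio (RV-Cre minus control, on the log2(normalized count + 1) scale) of the genes past the minimum in each list, 1 point per gene, with the list median as a bar and dashed lines at 2-fold. The class I presentation genes spread from -1.48 to 0.80 around a median of -0.04, and the class II presentation genes have the highest median, 0.83. That highest median is the value of *H2-Ob*, a gene with few reads.

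The label of the cells was read against marker genes. All 7 CD4 T cell markers had at least 713 reads in either library, with *Cd3d* at 3662 and 7475 reads, *Cd3e* at 1453 and 2884 and *Lck* at 4959 and 4839. *Cd5*, with 3800 and 1696 reads, was the one of them with a ratio below 1, 0.504 (0.475 to 0.533). The Th17 markers *Il17f* and *Ccr6* had 421 and 79 reads and 601 and 313 reads. *Cd8a* had 322 and 580 reads and *Cd8b1* 122 and 274, while the 5 B cell markers summed to 42 and 108 reads with *Cd79a* at 6 and 30, *Cd79b* at 18 and 11 and *Pax5* at 0 in both libraries. The 7 myeloid and dendritic markers summed to 94 and 167 reads, with *Csf1r* at 16 and 110, *Cd14* at 14 and 21 and *Adgre1* at 0 and 8. The 5 CD8 and NK markers summed to 470 and 885 reads. Each of these sums was higher in the RV-Cre library, as was that of the CD4 T cell markers (20843 and 24037 reads). *Itgax* (27 and 1 reads), *Lyz2* (22 and 7 reads) and *Klrb1c* (12 and 0 reads) were lower. What part cells with these markers have in the class I and class II values was not tested. In bulk RNA, a different number of cells and a different amount of RNA per cell cannot be told apart.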

How the data were processed

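RNA-seq of control and RV-Cre-transduced Th17 cells, 1 library each from 500 ng of total RNA, was analysed. The authors deposited raw counts of reads per gene symbol from QuantSeq libraries. Submitters' processing notes name bcl2fastq 2.20.0.422, Bowtie2, bedtools and mm10. Strand setting and treatment of multi-mapping reads are not given in the sources used here. Groups came from the sample titles. Counts were scaled with TMM factors of edgeR 4.0.16 (size factors 1.06 and 0.941) in R 4.3.3. With 1 library per condition, no test was possible. Intervals were computed with scipy 1.17.1. PCR reads without molecular identifiers are not independent, so they cover counting error only. The call rule and intervals were run on data simulated with counting error alone, which checks the code and not variation between libraries. Gene positions, overlaps and transcript ends came from GENCODE M21 and promoters from RefSeq, both GRCm38.

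The genes and lists were chosen with earlier results of these data known. Named were the 10 class I presentation genes, *Ptk2*, *Gapdh* and *Rn45s* for scaling, and of each list the gene with most reads and the 2 most extreme log2 ratios in each direction past the minimum. Some marker genes that this rule names are not reported here. Overlapping genes, *H2-T9*, *H2-T10*, *H2-T22*, *Psmb8*, *H2-Ob* and the markers *Lck*, *Pax5*, *Adgre1* and *Klrb1c*, were named after their values were seen. Alternatives were library totals with and without *Rn45s*, DESeq2 1.42.0 size factors, *Gapdh* scaling, pseudocounts of 0.1 and 10, other minimums, a 1.5-fold threshold and the counting interval alone. The sum over all H2 class I rows was chosen after seeing the data.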

Additional observations from a re-analysis of the deposited data

How the results depend on the processing

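No paired analysis was possible because there is only 1 library on each side and no replicate number. Scaling to *Gapdh* (956 and 634 reads) shifted the median of all genes by 0.44 on the log2 scale, and the next largest shift was 0.10, with library totals without *Rn45s*. With *Gapdh* scaling *Tapbp* was called higher and *Tap2* lower, 1 gene each way. The class I presentation genes then had a median of 0.37, and the summed heavy chains a log2 ratio of 0.61. The medians of the other lists were 0.14 for other heavy chains, 0.21 for chaperones, 0.25 for the immunoproteasome, 0.35 for constitutive subunits, 0.16 for peptidases, 0.58 for promoter regulators, 0.83 for interferon signalling and 1.23 for class II. These follow the common shift. *H2-D1* was then at 0.41 and *Tap1* at 0.33. Without *Rn45s* in the totals, *H2-D1* was at 0.086 and *Tap1* at 0.0065, the heavy chain sum at 0.28, the chaperones at -0.12 and the constitutive subunits at 0.019. *B2m*, *H2-K1*, *Tapbp* and *Nlrc5* kept a log2 ratio above 0 and *H2-T23*, *Tap2*, *Tapbpl* and *Erap1* one below 0 under all 6 alternatives of scaling and pseudocount.

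A pseudocount of 10 left 1 gene called lower, *Tap2*, and put class II at 0.59. A minimum of 6 also left 1 lower. With a threshold of 1.5-fold, 1 gene was called higher (*Tapbp*) and 3 lower (*Tap2*, *H2-T23* and *Erap1*). With the counting interval alone, 4 were higher and 4 lower. Counts per gene limit *H2-T23* most, with 38 reads in both libraries together.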
